A study of Mus musculus with 9 samples.

Results

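The 37 genes described here belong to the amino acid arm of the integrated stress response, the program run by the transcription factor ATF4. They were chosen by name and not by a cut on their values, but with earlier results of these data known. All 37 had a row among the 13708 genes of the deposited table. They fall into 13 regulators, 12 enzymes of amino acid and one-carbon metabolism and 12 cytosolic aminoacyl-tRNA synthetases. The RNA came from macrophages sorted from E15.5 mouse livers as CD45+ F4/80hi CD11blow cells, a gate that takes both Tim4hi and Tim4lo cells. Bulk RNA-seq compared 5 *Mrc1Cre Xpr1fl/fl* samples with 4 *Xpr1fl/fl* controls, and addressed what loss of *Xpr1*, which encodes the only known exporter of inorganic phosphate in mammals, does to these macrophages. Both groups were on a C57BL/6 background and homozygous for an *Xpr1* allele whose exon 2 is flanked by loxP sites. The groups differed in *Mrc1Cre*, an allele with the recombinase and eYFP inserted in *Mrc1*, which was used in the heterozygous state. *Mrc1Cre* is active in CD206+ macrophages and also in sinusoidal endothelial cells of the liver. The authors reported Tim4lo macrophages in *Mrc1Cre Xpr1fl/fl* embryos, besides the Tim4hi cells that controls had. The part of this subset in the results below was not tested. Whether a sample was 1 embryo or a pool was not stated, so the p-values below measure the spread between these samples.

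In this response, kinases that sense stress phosphorylate the translation initiation factor eIF2. The kinase GCN2 responds to uncharged tRNA, PERK to unfolded protein in the endoplasmic reticulum, HRI to heme shortage and PKR to double-stranded RNA. Phosphorylated eIF2 lowers protein synthesis in general but allows translation of the *Atf4* mRNA, so ATF4 protein can change with no change of its transcript. ATF4 then pairs with C/EBP family proteins and activates genes for amino acid import and synthesis, tRNA charging and feedback control. Fetal liver macrophages sit in erythroblastic islands, where they engulf expelled nuclei of red cell precursors.

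The labels were checked first. *Xpr1* had 1074 to 1285 normalized counts in *Mrc1Cre Xpr1fl/fl* samples, whereas controls had 1781 to 2239, and *Mrc1* averaged 7574 and 24693. Macrophage markers were abundant in both groups, with summed levels over 12 genes of 301117 to 323104 in *Mrc1Cre Xpr1fl/fl* samples and 308637 to 372241 in controls. Of the 12, 5 were lower, without overlap, and 1 was higher, with a median log2 fold change of -0.12. No marker gene with a row, of macrophages or of the other cell types examined, was at 0 in any sample. All 19 erythroid markers tested were lower in *Mrc1Cre Xpr1fl/fl* samples, with summed levels of 109101 to 172662 in samples 1 to 4 and 325218 in sample 5, against 429355 to 675028 in controls. All 10 hepatocyte markers were lower too (summed 35350 to 45590 in *Mrc1Cre Xpr1fl/fl* samples, 59546 to 102763 in controls), as were 8 of 10 endothelial markers (6692 to 8695 against 10812 to 14937) and 6 of 10 granulocyte and progenitor markers (4609 to 14423 against 9920 to 47692). Of 8 monocyte markers, 3 were higher and 4 lower, and their summed level was 18295 to 25168 against 15249 to 18213. Of 18 cell cycle genes, 2 were higher and 4 lower (91237 to 105180 against 92032 to 106686). By the same limma test, given below, 21.5% of all genes tested were higher and 21.6% lower. In a bulk sample, fewer cells of a type and less RNA per cell cannot be told apart, and the part of these other cells in the results below was not tested except where a value is given.

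The column names begin with 1 of 3 dates whose meaning is not stated. *Mrc1Cre Xpr1fl/fl* sample 5 and controls 1 to 3 carry the earliest, control 4 the middle one and *Mrc1Cre Xpr1fl/fl* samples 1 to 4 the latest. Genotype and date are therefore separable only through sample 5, and a fit that includes the date compares that sample with controls 1 to 3.

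Of the 37 genes, 18 (48.6%) rose and 6 (16.2%) fell in *Mrc1Cre Xpr1fl/fl* samples at a Benjamini-Hochberg adjusted p under 0.05 in limma, run over 13594 genes on log2(normalized count + 1). Over all genes tested, 21.5% rose and 21.6% fell. The median log2 fold change of the 37 genes was 0.18, and that of all genes tested was 0.00. The arms differed in makeup. Of the regulators, 8 rose, 2 fell and 3 did not pass, with a median of 0.34. Of the enzymes, 3 rose, 4 fell and 5 did not pass, with a median of -0.03. Of the synthetases, 7 rose, none fell at an adjusted or an unadjusted p under 0.05 in limma, and 5 did not pass, with a median of 0.23. The largest rises were those of *Trib3*, *Nupr1*, *Chac1* and *Atf5*, and the largest falls those of *Cth*, *Pycr1*, *Ppp1r15a* and *Asns*.

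Every *Mrc1Cre Xpr1fl/fl* sample lay above every control for 16 of the 37 genes, where 16.6% of all genes tested did so. Every *Mrc1Cre Xpr1fl/fl* sample lay below every control for 5, against 17.5% of all genes. Within the earliest date, *Mrc1Cre Xpr1fl/fl* sample 5 was above all 3 controls for 17 of the 18 genes that rose, with *Psat1* as the exception, where 87.8% of all genes that rose had this order. It was below all 3 for 6 of the 6 that fell, where 91.0% of all genes that fell were. These samples took part in the fit that called the genes, so these counts are a description only. In a limma fit that added the date (the date fit), the log2 fold change had the same sign for 36 of the 37 genes, *Ddit4* being the other. In that fit 3 of the 37 passed as higher (*Atf5*, *Sesn2* and *Nupr1*), where 4.24% of all genes did, and 0 passed as lower, where 4.54% of all genes did. At an unadjusted p under 0.05 the date fit gave 13 higher and 4 lower, where 12.8% of all genes tested were higher and 13.1% lower.

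**Figure D1:**
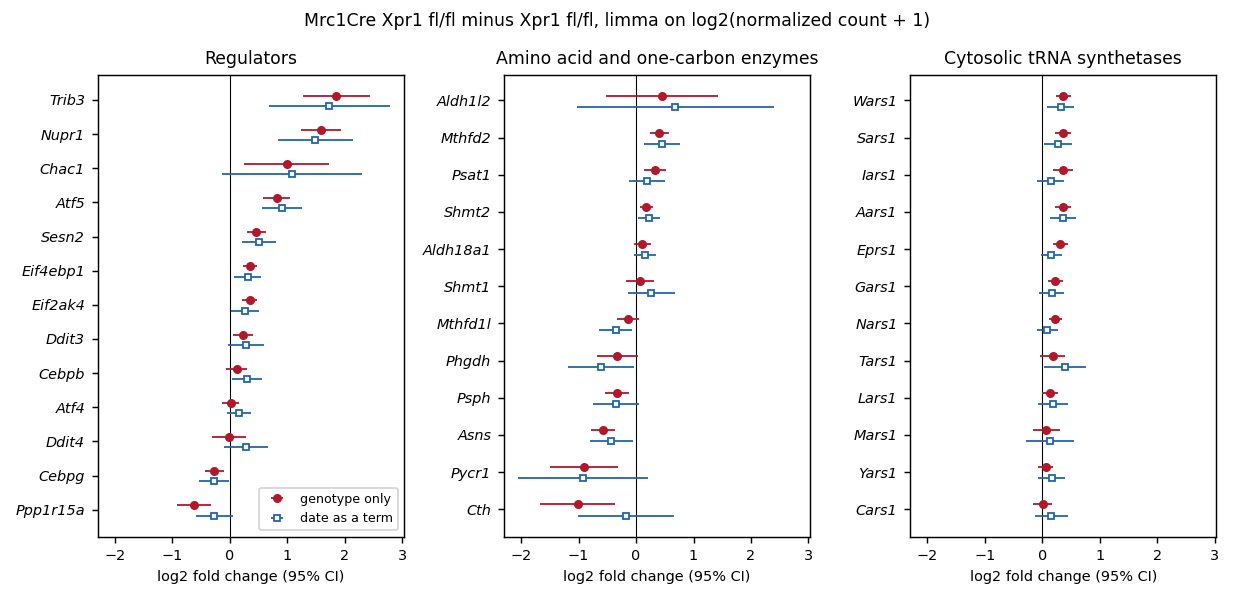
Log2 fold change (*Mrc1Cre Xpr1fl/fl* minus *Xpr1fl/fl*, limma on log2(normalized count + 1)) with 95% confidence intervals for each of the 37 genes, in 3 panels by arm. Filled red circles are the fit with genotype only and open blue squares the date fit. Most regulators and all 12 synthetases lie at or right of 0 (*Cars1*, *Mars1* and *Yars1* left of it after scaling to the 75th percentile), the enzymes lie on both sides, and the intervals of the date fit are wider.

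ATF4 with its C/EBP partners binds the C/EBP-ATF composite element, here written TGATGNAA (N, any base) and read on both strands. RefSeq promoter windows of GRCm38.p6, from 250 bases before to 50 after a start site, were at hand for 30 of the 37 genes, and none was at hand for *Eif4ebp1*, *Aldh1l2*, *Cth*, *Cars1*, *Lars1*, *Nars1* and *Wars1*. The letters were present in 10 of the 30 (33.3%), against 4.51% of the 27025 genes with a window and 3.97% of all 32851 windows. The genes were listed as part of the ATF4 response, so this difference may follow from that choice and is a description only. They were present for 5 of 8 synthetases (*Aars1*, *Gars1*, *Iars1*, *Tars1* and *Yars1*), 3 of 12 regulators (*Trib3*, *Chac1* and *Nupr1*) and 2 of 10 enzymes (*Asns* and *Pycr1*). By outcome they stood in 6 of 15 genes that rose, 2 of 5 that fell and 2 of 10 that did not pass. Of the genes with a match, *Nupr1* alone also passed in the date fit. Matches to TGATGNAA, with differing bases at N, stood near the starts of genes that passed in opposite directions. To show this, stretches from 120 bases before to 30 after the start are given for the 2 genes per arm with the largest change among those that passed and held the letters, with the match in capitals. *Trib3* and *Nupr1* rose among the regulators, *Asns* and *Pycr1* fell among the enzymes, and *Aars1* and *Iars1* rose among the synthetases.
*Trib3*, chr2:152344031-152344180, minus strand: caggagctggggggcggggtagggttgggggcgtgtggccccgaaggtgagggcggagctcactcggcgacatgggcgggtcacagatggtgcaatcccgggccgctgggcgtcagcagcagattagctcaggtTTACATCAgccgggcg
*Nupr1*, chr7:126625441-126625590, minus strand: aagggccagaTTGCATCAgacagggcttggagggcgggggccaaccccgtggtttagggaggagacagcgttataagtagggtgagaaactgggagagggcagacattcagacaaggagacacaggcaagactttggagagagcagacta
*Asns*, chr6:7693180-7693329, minus strand: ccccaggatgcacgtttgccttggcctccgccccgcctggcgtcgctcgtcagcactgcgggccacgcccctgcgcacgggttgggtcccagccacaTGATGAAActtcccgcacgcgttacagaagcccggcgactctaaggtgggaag
*Pycr1*, chr11:120643719-120643868, minus strand: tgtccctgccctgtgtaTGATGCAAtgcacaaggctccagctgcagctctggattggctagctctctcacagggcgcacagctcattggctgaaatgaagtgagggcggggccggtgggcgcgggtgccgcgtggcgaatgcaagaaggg
*Aars1*, chr8:111033722-111033871, plus strand: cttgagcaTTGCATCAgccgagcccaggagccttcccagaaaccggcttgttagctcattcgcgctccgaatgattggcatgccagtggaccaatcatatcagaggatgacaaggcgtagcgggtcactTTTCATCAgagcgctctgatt
*Iars1*, chr13:49682010-49682159, plus strand: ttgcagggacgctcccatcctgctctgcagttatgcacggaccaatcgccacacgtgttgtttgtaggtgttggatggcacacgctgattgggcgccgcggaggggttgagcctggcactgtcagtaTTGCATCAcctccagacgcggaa
The *Aars1* stretch holds 2 matches and the other 5 hold 1 each. The matches of *Nupr1*, *Asns* and *Pycr1* and the first of *Aars1* lie before the start site, and those of *Trib3* and *Iars1* and the second of *Aars1* after it. A match of letters describes the sequence and does not show that ATF4 was bound there, and RNA-seq did not measure binding.

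Coordinates of genes from here on are those of GRCm39. Among the transcription factors, *Atf4* itself (chr15:80139372-80141745) had 4681, 4180.1, 4606, 4459 and 4830.0 normalized counts in *Mrc1Cre Xpr1fl/fl* samples 1 to 5 and 4648, 4182, 4162 and 5073 in controls 1 to 4. The groups overlapped, and the log2 fold change was 0.01 with a 95% confidence interval of -0.13 to 0.16 (limma adjusted p = 0.884). *Atf5* (chr7:44461680-44466082), which encodes a related factor that is itself translated under eIF2 phosphorylation, had 1007, 887, 1199, 1085 and 1036 normalized counts against 598, 529.6, 531 and 714. No *Mrc1Cre Xpr1fl/fl* sample was as low as any control. The rise was 0.82 on the log2 scale (SE 0.11, limma adjusted p = 0.000165), and the date fit gave 0.91 (adjusted p = 0.0102).

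*Ddit3* encodes CHOP, a partner of ATF4 in prolonged stress. It had 500.2, 460.1, 525, 522 and 506 normalized counts against 449, 395, 406 and 465, so that *Mrc1Cre Xpr1fl/fl* sample 2 lay below control 4. The log2 fold change of 0.23 (SE 0.08, limma adjusted p = 0.0332) did not pass without *Mrc1Cre Xpr1fl/fl* sample 1, 3 or 4 or without control 2 or 3, with adjusted p from 0.0586 to 0.0913. *Ddit3* (chr10:127124268-127132163, plus strand) overlaps *Mars1* (chr10:127128344-127147776, minus strand). The libraries were stranded, but the strand setting of the quantification was not given. *Cebpg* (chr7:34745847-34756011), a C/EBP partner of ATF4, fell. It had 1539, 1736, 1748, 1893 and 1813 normalized counts against 2112, 2141, 2319 and 1861, with 1 *Mrc1Cre Xpr1fl/fl* sample above the lowest control. Its log2 fold change was -0.27 (SE 0.08, limma adjusted p = 0.0134). *Cebpb*, another C/EBP factor, had a log2 fold change of 0.12 (95% confidence interval -0.07 to 0.30) and did not pass.

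The feedback and effector genes held the steepest rises. *Trib3* (chr2:152179337-152191958) encodes a pseudokinase that restrains ATF4 activity. It had 123, 90.9, 217, 143 and 114 normalized counts in *Mrc1Cre Xpr1fl/fl* samples and 25.8, 48.5, 30.4 and 42.9 in controls. The lowest *Mrc1Cre Xpr1fl/fl* sample was above the highest control by more than the range of the controls. This was a log2 fold change of 1.85 (SE 0.26, limma adjusted p = 0.000276), and in the date fit it was 1.73 and just missed the threshold (adjusted p = 0.05002).

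*Nupr1* (chr7:126222414-126230033), a small stress-induced chromatin protein, had 326, 438, 450.0, 424 and 390.2 normalized counts against 151, 175, 100.3 and 119.9. The groups lay far apart, and sample 5 was within the range of the other *Mrc1Cre Xpr1fl/fl* samples. Its log2 fold change of 1.59 (SE 0.16, limma adjusted p = 4.11e-05) was 1.49 in the date fit (adjusted p = 0.0157). *Sesn2* (chr4:132219335-132237815) encodes sestrin 2, a leucine sensor that restrains mTORC1. It had 1135, 1219.6, 1384, 1341 and 1274 normalized counts against 916, 818, 959 and 995, with no overlap. Its log2 fold change was 0.46 (SE 0.08, limma adjusted p = 0.000744) and 0.51 in the date fit (adjusted p = 0.0454).

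*Chac1* (chr2:119180757-119184866), which encodes an enzyme that degrades glutathione, was near the lower limit of the table. It had 16.1, 20.2, 19.6, 16.9 and 15.6 normalized counts against 4.7, 7.7, 8.8 and 15.1. The groups did not overlap, but control 4 was just under the lowest *Mrc1Cre Xpr1fl/fl* sample. Its log2 fold change of 0.99 (SE 0.34, limma adjusted p = 0.0352) was 0.56 with a pseudocount of 10. It did not pass without any one of *Mrc1Cre Xpr1fl/fl* samples 1 to 4 or controls 1 to 3, with adjusted p from 0.0552 to 0.0921.

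A pair of genes that act on translation rose by a smaller amount. *Eif4ebp1* (chr8:27750350-27805206) encodes 4E-BP1, which holds back cap-dependent translation. It had 1989, 1786, 2017, 1864 and 1839.6 normalized counts against 1589.8, 1436, 1438 and 1474, a log2 fold change of 0.36 (SE 0.06, limma adjusted p = 0.000571). *Eif2ak4* (chr2:118218950-118305868) encodes GCN2, the eIF2 kinase of amino acid shortage. It had 1993, 1991, 2061, 2223 and 1908 normalized counts against 1449, 1633, 1701 and 1643, a log2 fold change of 0.34 (SE 0.06, limma adjusted p = 0.00142). Neither gene's groups overlapped. In the date fit the changes were 0.31 and 0.26 and did not pass (limma adjusted p = 0.0950 and 0.165).

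*Ppp1r15a* (chr7:45172340-45175692) moved the other way. It encodes GADD34, which brings a phosphatase to eIF2 and so reverses the response. It had 3428, 2879.8, 3361, 3174 and 3825 normalized counts in *Mrc1Cre Xpr1fl/fl* samples and 5046, 3921, 4964 and 6947 in controls. The groups did not overlap, but sample 5 was close to control 2 and control 4 was far above the other controls. On the log2 scale the difference was -0.62 (SE 0.14, limma adjusted p = 0.00384), and it was -0.27 in the date fit (adjusted p = 0.273). *Ddit4*, which encodes REDD1, an inhibitor of mTORC1, ranged from 2138 to 3296 normalized counts against 2214 to 3250.5. Its log2 fold change was -0.02 (95% confidence interval -0.31 to 0.28).

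**Figure D2:**
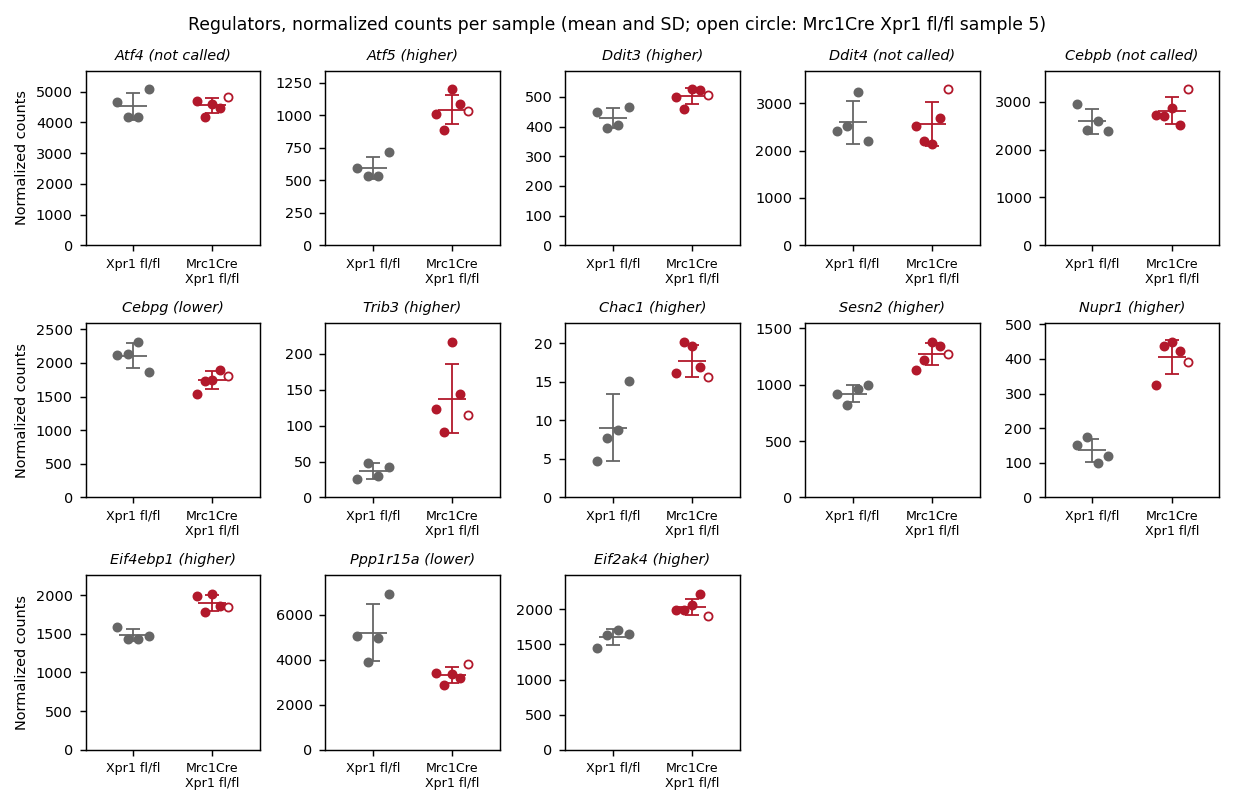
Normalized counts per sample (y axis, linear from 0, a scale for each gene) of the 13 regulators in *Xpr1fl/fl* controls (grey, n = 4) and *Mrc1Cre Xpr1fl/fl* samples (red, n = 5, sample 5 open), with mean and SD. *Trib3*, *Nupr1* and *Atf5* separate the genotypes by the widest margins, *Ppp1r15a* separates them the other way, and *Atf4* overlaps.

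Of the 12 enzymes, 3 rose (25.0%) and 4 fell (33.3%), beside 21.5% and 21.6% of all genes tested. None of the enzymes passed in the date fit. Serine is made from a glycolytic intermediate by PHGDH, PSAT1 and PSPH in that order. *Phgdh*, the first step, had 567, 615, 718, 613 and 537 normalized counts in *Mrc1Cre Xpr1fl/fl* samples and 585, 974, 974 and 603 in controls. The controls fell into a low and a high pair, and the log2 fold change of -0.33 (95% confidence interval -0.68 to 0.03) did not pass (limma adjusted p = 0.131). Without control 1 it was -0.45 and passed (adjusted p = 0.0466). *Psat1* (chr19:15882039-15924701), the second step, rose, with 2505, 2538, 2388, 2234 and 2080.0 normalized counts against 1799, 2132, 1599 and 1955. *Mrc1Cre Xpr1fl/fl* sample 5 was below control 2 and thus within the controls of its own date. Its rise was 0.33 on the log2 scale (SE 0.09, limma adjusted p = 0.0100), and 0.18 in the date fit (adjusted p = 0.452). *Psph* (chr5:129841925-129864513), the last step, fell. It had 211, 196, 242, 237 and 221 normalized counts against 298, 284, 267 and 272 with no overlap, a log2 fold change of -0.34 (SE 0.10, limma adjusted p = 0.0140).

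In the mitochondrion, SHMT2 passes a one-carbon unit from serine to folate and MTHFD2 oxidizes it. Both transcripts rose. *Mthfd2* (chr6:83282673-83302890) had 1121, 1155, 1345, 1130.3 and 1199 normalized counts against 911, 956, 779 and 946, a log2 fold change of 0.41 (SE 0.08, limma adjusted p = 0.00188). *Shmt2* (chr10:127352266-127358323) had 3842, 3757, 3586, 3509 and 3715 against 3054, 3368, 3137 and 3455, a log2 fold change of 0.18 (SE 0.05, limma adjusted p = 0.0165). Neither gene overlapped between the groups, but *Shmt2* did not pass without control 3 (log2 fold change 0.16, adjusted p = 0.0523). The later steps did not pass. *Mthfd1l*, which releases formate, had a log2 fold change of -0.14 (95% confidence interval -0.33 to 0.05), and *Aldh1l2*, which oxidizes formyl folate, had 3.0 to 15.1 normalized counts and an interval of -0.52 to 1.42. The cytosolic counterpart *Shmt1* had a log2 fold change of 0.07 (95% confidence interval -0.17 to 0.31).

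*Asns* (chr6:7671667-7728461) encodes asparagine synthetase, a much used reporter of ATF4 activity, and it fell. It had 955, 935, 1276, 1151 and 1177 normalized counts in *Mrc1Cre Xpr1fl/fl* samples and 1531, 1529, 1709 and 1766 in controls. All 5 were below all 4 controls. The difference on the log2 scale was -0.58 (SE 0.10, limma adjusted p = 0.000785), and -0.43 in the date fit (adjusted p = 0.139). *Trib3* and *Nupr1*, which rose, also hold a match to TGATGNAA in the stretches above, with other bases at N and at other positions. Of these genes *Nupr1* alone passed in the date fit, and the part of ATF4 in their changes was not tested.

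*Pycr1* and *Cth* both fell and both had few counts. *Pycr1* (chr11:120526484-120539269), the last step of proline synthesis, had 15.9, 12.2, 19.2, 20.2 and 16.8 normalized counts against 22.9, 33.3, 45.8 and 30.02. The groups did not overlap, with a log2 fold change of -0.91 (SE 0.27, limma adjusted p = 0.0182). It was -0.74 without control 3 and then did not pass (adjusted p = 0.0675). *Aldh18a1*, the first step of proline synthesis, had a log2 difference of 0.11 (limma adjusted p = 0.202), and without control 4 it was 0.17 and passed (adjusted p = 0.0287).

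*Cth* (chr3:157599868-157630739) encodes cystathionine gamma-lyase, which makes cysteine from the methionine pathway and is abundant in hepatocytes. It had 21.6, 20.01, 29.1, 31.2 and 42.5 normalized counts against 47.8, 44.2, 52.0 and 98.6. The highest *Mrc1Cre Xpr1fl/fl* sample was sample 5, close to the controls of its date, and control 4 was far above the other controls. Over all samples the log2 fold change was -1.02 (SE 0.30, limma adjusted p = 0.0164), while it was -0.76 without control 4 (adjusted p = 0.0487) and -0.17 in the date fit (adjusted p = 0.811). Control 4 also had the highest summed level of hepatocyte markers, 102763 against 59546 to 74827 in the other controls. The part of hepatocyte RNA in the *Cth* values was not tested.

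**Figure D3:**
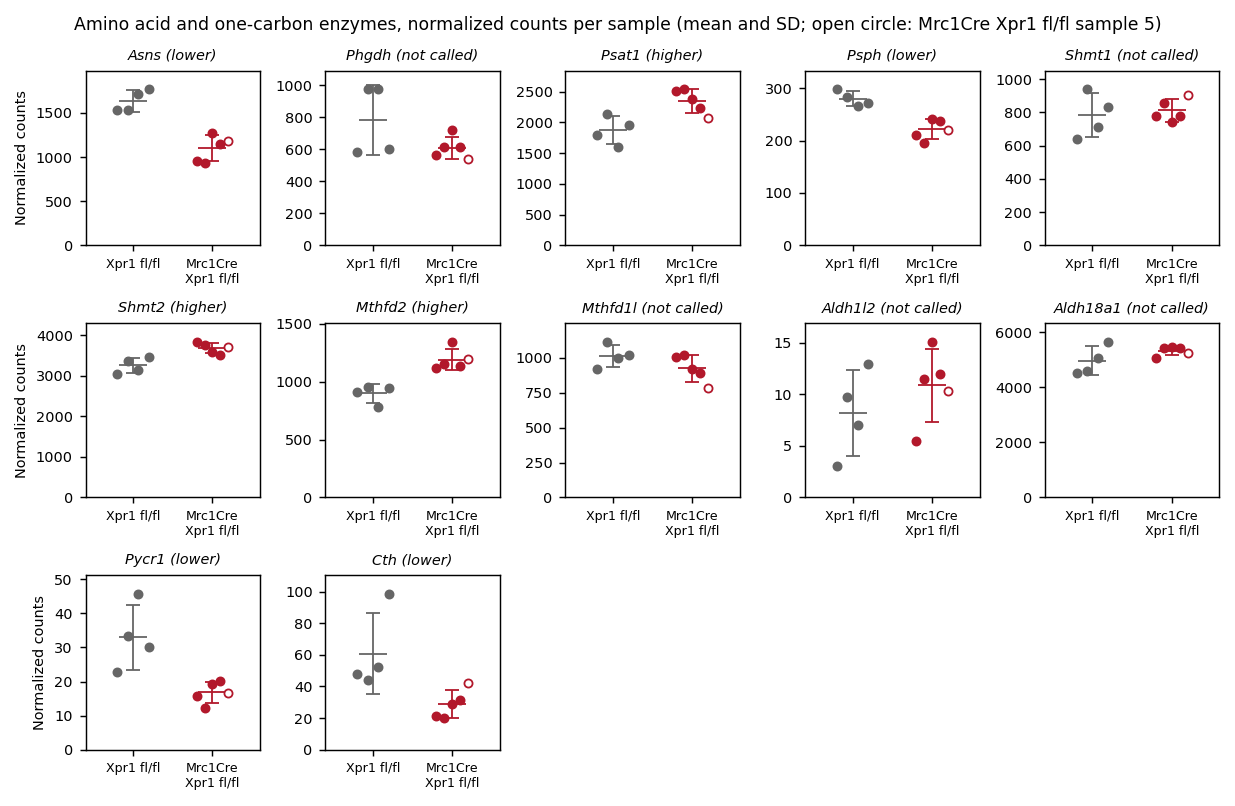
Normalized counts per sample (y axis, linear from 0, a scale for each gene) of the 12 amino acid and one-carbon enzymes in *Xpr1fl/fl* controls (grey, n = 4) and *Mrc1Cre Xpr1fl/fl* samples (red, n = 5, sample 5 open), with mean and SD. *Asns*, *Psph*, *Pycr1* and *Cth* are lower in all *Mrc1Cre Xpr1fl/fl* samples, while *Mthfd2* and *Shmt2* are higher in all.

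Cytosolic aminoacyl-tRNA synthetases load each tRNA with its amino acid. Their changes were small, with all 12 log2 fold changes above 0 and the largest at 0.37, although *Cars1*, *Mars1* and *Yars1* were below 0 after scaling to the 75th percentile and *Cars1* and *Mars1* after quantile normalization. The normalized counts of the 12 genes summed to 45402 to 48390 in *Mrc1Cre Xpr1fl/fl* samples 1 to 4, to 44718 in sample 5 and to 36829 to 40540.5 in controls. The summed levels of the other arms overlapped between the groups. They were 20607 to 24109 against 20231 to 23950 for the regulators and 15958 to 16757 against 14339 to 16662 for the enzymes. Those of the other cytosolic synthetases described below overlapped too (26582 to 30694 against 25246 to 27734). The 7 of this arm that rose did so without overlap between the groups. Of all genes tested, 16.6% had every *Mrc1Cre Xpr1fl/fl* sample above every control. For each of the 7, *Mrc1Cre Xpr1fl/fl* sample 5 was above controls 1 to 3, where 87.8% of all genes that rose had this order. These samples took part in the fit that called the genes, so these counts are a description only.

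*Aars1* (alanine, chr8:111754391-111784296) had 6319.6, 6634, 7190.1, 6285 and 6392 normalized counts in *Mrc1Cre Xpr1fl/fl* samples and 5189, 5174, 4619.9 and 5525 in controls. *Sars1* (serine, chr3:108332181-108352701) had 3939, 4076, 4169.7, 4196 and 3866 against 3601, 3045, 2941 and 2994, with control 1 above the other controls. *Wars1* (tryptophan, chr12:108825955-108860188), which is also known as an interferon-induced gene, had 2326, 2451, 2308, 2056 and 2155 against 1735, 1769, 1670.2 and 1815. In all 3 genes the *Mrc1Cre Xpr1fl/fl* samples were above each control. Log2 fold changes were 0.36 for *Aars1*, 0.37 for *Sars1* and 0.37 for *Wars1*, each with an SE of 0.06 (limma adjusted p = 0.000906, 0.000908 and 0.000598).

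*Iars1* (isoleucine, chr13:49835576-49887745) had 4846, 5098, 4893, 4493 and 3956 normalized counts against 3292, 3894, 3585 and 3716. *Eprs1* (glutamate and proline, chr1:185095101-185161840) had 6084, 6386, 6073, 5939.9 and 5276 against 4486, 4945, 4747 and 4921. In both, sample 5 was the lowest of the *Mrc1Cre Xpr1fl/fl* samples and the nearest to the controls. Log2 fold changes were 0.36 (SE 0.08) for *Iars1* and 0.32 (SE 0.06) for *Eprs1* (limma adjusted p = 0.00339 and 0.00161), and 0.14 and 0.16 in the date fit.

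*Gars1* (glycine, chr6:55014927-55061231) had 3789, 3955, 3841, 3425 and 3508 normalized counts against 3183, 3274, 2958 and 3214. *Nars1* (asparagine) had 8944, 9089, 9185, 9722 and 8369.7 against 7929, 8075, 7594 and 7442. These were the smallest rises that passed among the synthetases, at 0.23 (SE 0.06) and 0.22 (SE 0.05) on the log2 scale (limma adjusted p = 0.00729 and 0.00540). None of the 7 passed in the date fit, where *Aars1* came closest, with a log2 fold change of 0.36 (adjusted p = 0.0561). The same fit gave 0.16 for *Gars1* (limma adjusted p = 0.334) and 0.09 for *Nars1* (adjusted p = 0.515). At an unadjusted p under 0.05 in the date fit, 4 of the 12 synthetases were higher and 0 lower, beside 12.8% and 13.1% of all genes.

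The synthetases that did not pass had log2 fold changes of 0.18 for *Tars1* (threonine), 0.13 for *Lars1* (leucine), 0.07 for *Mars1* (methionine), 0.06 for *Yars1* (tyrosine) and 0.00 for *Cars1* (cysteine). The 95% confidence interval of *Cars1* ran from -0.16 to 0.17, and that of *Tars1* from -0.04 to 0.40. *Tars1* passed without *Mrc1Cre Xpr1fl/fl* sample 4 (0.27, limma adjusted p = 0.0121) and *Lars1* without control 2 (0.19, adjusted p = 0.0311). *Tars1* and *Yars1* hold the composite element letters in their windows, as do *Aars1*, *Gars1* and *Iars1*.

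**Figure D4:**
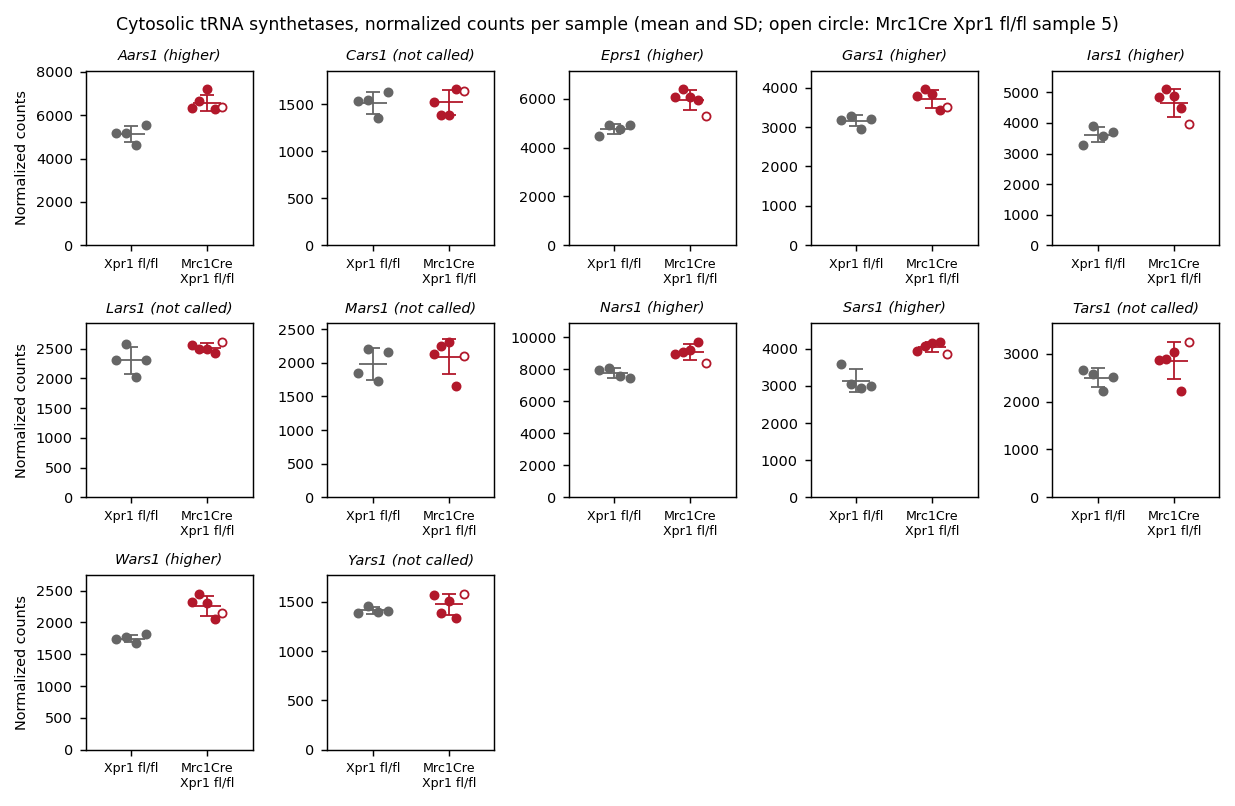
Normalized counts per sample (y axis, linear from 0, a scale for each gene) of the 12 cytosolic aminoacyl-tRNA synthetases in *Xpr1fl/fl* controls (grey, n = 4) and *Mrc1Cre Xpr1fl/fl* samples (red, n = 5, sample 5 open), with mean and SD. The differences are small beside the level of each gene, and 7 genes show no overlap. Of all genes tested, 16.6% had every *Mrc1Cre Xpr1fl/fl* sample above every control.

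When each sample was scaled to its 75th percentile, the log2 fold changes of the 37 genes dropped by 0.07 to 0.08, and the median of all genes was then -0.07. Under it 14.7% of all genes tested rose and 27.3% fell. Of the 37 genes 16 rose and 6 fell, *Ddit3* and *Shmt2* being the 2 that no longer passed (log2 fold changes 0.15 and 0.10, limma adjusted p = 0.146 and 0.135). The 7 synthetases still passed, *Gars1* and *Nars1* narrowly (limma adjusted p = 0.0492 and 0.0457), and 6 passed after quantile normalization, without *Gars1*. With the scaling to the 75th percentile, *Cars1*, *Mars1* and *Yars1* had log2 fold changes of -0.07, -0.01 and -0.02.

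Related genes outside the 37 were taken from lists by name. Their counts stand beside the 21.5% of all genes tested that rose and the 21.6% that fell. Of 11 other cytosolic synthetases and scaffold proteins, 3 rose and 1 fell, with a median log2 fold change of 0.10. *Vars1* (valine, 0.31), *Qars1* (glutamine, 0.26) and *Rars1* (arginine, 0.21) rose (limma adjusted p = 0.0166, 0.0133 and 0.0253), but none of them passed after scaling to the 75th percentile. *Hars1* (histidine) fell, at -0.20 (adjusted p = 0.00682), with 1930.1 to 2187 normalized counts against 2314 to 2435. Of 17 mitochondrial synthetases, 2 rose and 1 fell, with a median of 0.04. *Aars2* rose by 0.30 and *Yars2* by 0.24 on the log2 scale, and *Pars2* had a log2 difference of -0.40 (limma adjusted p = 0.0243, 0.0430 and 0.0209). Neither rise passed after scaling to the 75th percentile (adjusted p = 0.0799 and 0.159), and none of the 3 passed in the date fit.

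Upstream of ATF4, 3 of 14 genes for eIF2 kinases, eIF2, its exchange factor eIF2B and their partners rose and 1 fell, with a median of 0.11. Of all genes tested, 21.5% rose and 21.6% fell. The fall was that of *Eif2ak1* and the largest rise that of *Eif2ak2*. *Eif2ak1*, which encodes HRI, the heme-regulated kinase that is most abundant in erythroid cells, had 2956, 2876, 3075, 3143 and 3299 normalized counts against 4235, 3919, 4572 and 4465. This was a log2 difference of -0.48 (limma adjusted p = 0.000114), and of -0.36 in the date fit (adjusted p = 0.0491). The erythroid markers were lower in the same samples, and their part in the *Eif2ak1* values was not tested. *Eif2ak2*, which encodes PKR and is an interferon-stimulated gene, had 3364, 4268, 3615, 3962 and 2881 against 2011, 3055, 2378 and 2528, a log2 difference of 0.54 (limma adjusted p = 0.00585). Its sample 5 lay within the controls of its date. The eIF2 subunit genes *Eif2s1* and *Eif2s2* rose by 0.36 and 0.16 (limma adjusted p = 0.00368 and 0.0152). None of the 3 rises passed in the date fit, with adjusted p = 0.490 for *Eif2ak2*, 0.0896 for *Eif2s1* and 0.386 for *Eif2s2*, and *Eif2s2* did not pass after scaling to the 75th percentile (adjusted p = 0.1998).

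Of 19 other genes known as ATF4 targets, 18 had a row, and 8 rose and 3 fell, with a median of 0.18. Rises made up 21.5% and falls 21.6% of all genes tested. Those with the largest change again pointed both ways. *Slc7a11*, the cystine importer, had 426, 319, 643, 585 and 410.5 normalized counts against 17.6, 13.6, 36.6 and 13.7, a log2 difference of 4.56 (limma adjusted p = 4.66e-06). *Stc2*, a secreted glycoprotein, and *Niban1*, a stress-induced cytosolic protein, followed with 1.06 and 0.82 (adjusted p = 0.0127 and 4.35e-05). *Slc6a9*, the glycine importer that supplies heme synthesis in erythroid cells, had 275, 202, 317, 236 and 487 against 849, 835, 1156 and 1096, a log2 difference of -1.75 (limma adjusted p = 0.000125). Sample 5, the *Mrc1Cre Xpr1fl/fl* sample with the highest erythroid marker sum, was also the highest of the 5 for *Slc6a9*, and the part of erythroid RNA was not tested. *Pck2*, the mitochondrial enzyme of phosphoenolpyruvate synthesis, had a log2 fold change of -0.91 (adjusted p = 0.000165), and *Slc3a2*, the partner chain of amino acid exchangers, -0.21 (adjusted p = 0.0316). In the date fit 4 of the 18 passed as higher and 2 as lower, where 4.24% and 4.54% of all genes did.

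Among 20 other enzymes of folate, methionine and proline metabolism, 5 rose and 7 fell, with a median of -0.05. The shares over all genes tested were 21.5% and 21.6%. *Got1* (aspartate transaminase) and *Mtr* (methionine synthase) had log2 fold changes of 0.61 and 0.44 (limma adjusted p = 0.000212 and 0.000255). *Aldh1l1*, *Gldc* and *Cbs*, of cytosolic folate oxidation, glycine cleavage and the step before CTH, had -1.90, -1.23 and -1.15 (limma adjusted p = 4.51e-05, 0.00128 and 0.0183). *Gldc* and *Cbs* were, like *Cth*, highest in control 4, at 177 and 176 normalized counts. The other controls had 90.9 to 104 for *Gldc* and 58.9 to 66.9 for *Cbs*. The date fit put *Cbs* at -0.16 (limma adjusted p = 0.810).

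**Figure D5:**
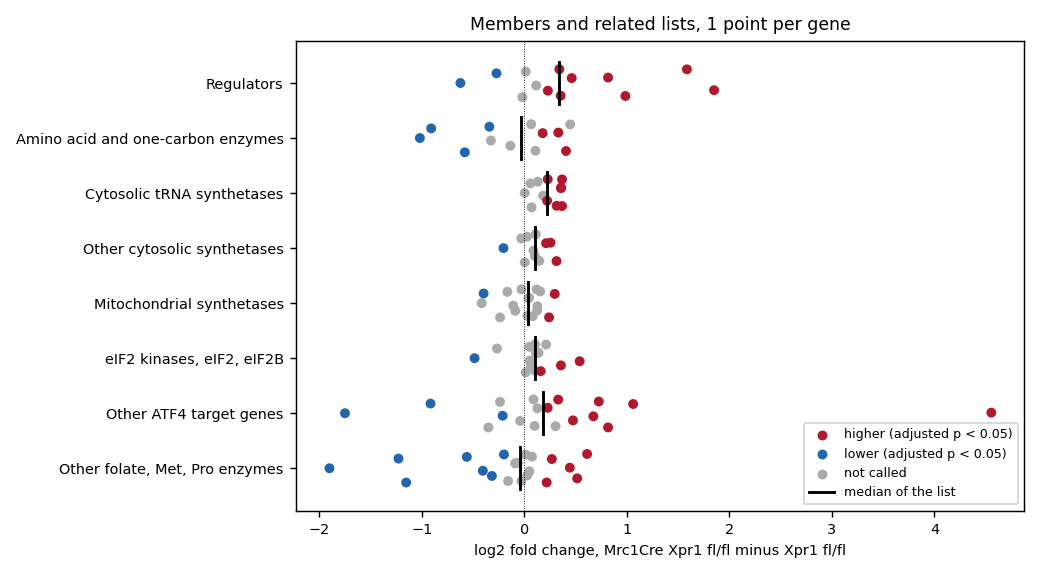
Log2 fold change (x axis, *Mrc1Cre Xpr1fl/fl* minus *Xpr1fl/fl*) of the 3 arms and the 5 related lists, 1 point per gene, red where higher and blue where lower at a limma adjusted p under 0.05, grey where not passed, with a bar at each list's median. The 7 cytosolic synthetases in red lie to the right of 0, and the enzymes and the other ATF4 targets spread to both sides, with *Slc7a11* at 4.56.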

How the data were processed

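Bulk RNA-seq libraries (stranded mRNA preparation, 45 ng of RNA, paired-end) of 5 *Mrc1Cre Xpr1fl/fl* and 4 *Xpr1fl/fl* samples were quantified by the authors with salmon on GRCm39, imported with tximport and normalized with DESeq2. Versions are not given in the sources used here. Each deposited value is a non-negative signal, a gene count that the authors divided by a normalization factor, for 13708 genes with a mean of at least 5.79. Sample totals (26942921 to 28309443) reflect that scaling, so depth is unknown, and no count test was run, since the values did not give back whole reads.

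Symbols and coordinates came from GENCODE mouse release 39. The 13594 genes that reached 10 normalized counts in 4 or more samples entered limma 3.58.1 (R 4.3.3) as log2(normalized count + 1), in a linear fit with a trended eBayes step, with genotype as the only term and Benjamini-Hochberg adjustment over all of them, at a threshold of 0.05. This scale understates changes of low genes. On simulated data with 200 changed genes among 13594, 185 were recovered and 7 others called. In the data described here 5865 genes passed, far more than were changed in the simulation. The simulated counts therefore give no power or error rate for the genes described here. Promoter windows came from RefSeq (GRCm38.p6) and were matched for 30 genes. Figures were drawn with matplotlib 3.10.9. Replicate numbers did not pair the samples (correlations of deviations -0.03, 0.15, -0.01 and -0.03).

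The 37 genes, the lists and the tests were chosen with earlier results of these data known. Values per sample were given for members that passed and for *Atf4*, and in each related list up to 3 rises and 3 falls were named, apart from 1 gene that is not reported here. Other genes' values per sample, such as those of *Phgdh*, were given after they were seen. Alternatives were pseudocounts of 0.5 and 10, no filter or a minimum of 50, quantile normalization, scaling to the 75th percentile, no trend, robust fitting, the replicate number or the date as a term, and leaving out each sample.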

Additional observations from a re-analysis of the deposited data

Results flagged for a closer look

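In 74 groups of values (37 genes in each genotype), 2 held a sample that stood apart from its group by Dixon's criterion, where chance would give about 3.7. *Cth* had 98.6 normalized counts in control 4 and 44.2 to 52.0 in the other controls. Without that control the log2 fold change of *Cth* was -0.76 (limma adjusted p = 0.0487). *Sars1* had 3601 normalized counts in control 1 and 2941 to 3045 in the other controls, and its lowest *Mrc1Cre Xpr1fl/fl* sample, at 3866, remained above it.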

How the results depend on the processing

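No gene that passed in either fit changed its direction, and sign changes were seen for 1 gene that did not pass with the date as a term, 3 with quantile normalization, 5 with scaling to the 75th percentile, 2 with the replicate block and 1 to 3 without any one of *Mrc1Cre Xpr1fl/fl* samples 2 to 5 or controls 1 to 3. With the date as a term, 1194 genes passed in limma in place of 5865, and of the members 3 regulators, 0 enzymes and 0 synthetases were higher and 0 regulators and 0 enzymes lower. At an unadjusted p under 0.05, that fit gave 7 regulators, 2 enzymes and 4 synthetases higher and 1 regulator and 3 enzymes lower, beside 12.8% of all genes higher and 13.1% lower. That fit rests on *Mrc1Cre Xpr1fl/fl* sample 5 against 3 controls. With at least 50 normalized counts, 2 enzymes were lower, since *Pycr1* and *Cth* were then not tested. Quantile normalization left 1 enzyme lower, and under it *Psph*, *Shmt2*, *Pycr1*, *Cth* and *Gars1* did not pass. With the replicate number as a replicate block, 6226 genes passed, and of the members the call of *Chac1* was lost (log2 fold change 1.03, limma adjusted p = 0.0588) with no other call changed. Number 5 occurs only among *Mrc1Cre Xpr1fl/fl* samples, so the fold changes of the replicate block fit equal those without sample 5. That is the sample through which genotype and date are separable. Without each sample in turn, 4815 to 6081 genes passed, and 15 of the 18 rises and 5 of the 6 falls were kept each time. *Atf5*, *Sesn2* and *Nupr1* passed under all alternatives. Absolute depth is unknown, so counting error could not be given for *Chac1*, *Pycr1*, *Aldh1l2* and *Cth*, the members with the fewest counts.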
